A study of Mus musculus with 6 samples.

Results

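The replication-dependent histone genes encode the bulk of the histone proteins that package newly copied DNA. They were taken as the genes whose older mouse symbol begins with Hist and a digit, with pseudogenes left out. Of 70 matching symbols, 3 pseudogenes were dropped, which left 67 genes of the 54123 genes with a row in the files. Class H1 had 6 members, H2A 18, H2B 18, H3 12 and H4 13. On the GRCm38 build, 54 members lie on chromosome 13, 10 on chromosome 3, 2 on chromosome 11 and 1 on chromosome 6.

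The RNA came from satellite cells, which are the resident stem cells of skeletal muscle, sorted by flow cytometry from hind limb muscles of C57BL/6 adults. Cardiotoxin, a component of snake venom that kills muscle fibres, had been injected into tibialis anterior and gastrocnemius 30 h before the sort in all 3 genotypes. Jmjd3 KO, Utx KO and Tdt Control have 2 libraries each, 6 in all. The labels do not say what drives the deletions, what the Tdt Control cells carry, or whether replicates are separate animals. The p-values therefore measure no more than the spread between these samples. JMJD3 (gene Kdm6b) and UTX (gene Kdm6a) remove methyl groups from lysine 27 of histone H3, a mark of repressed chromatin.

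Nucleosomes wrap DNA around a core of histones H2A, H2B, H3 and H4, and histone H1 binds the linker between them. The replication-dependent genes are transcribed mainly in S phase, carry no introns in their classical form, and their mRNAs end in a conserved stem-loop in place of a poly(A) tail. The stem-loop is bound by SLBP, which acts in processing, export, translation and decay of the message. Because the classical messages lack a poly(A) tail, the way a library is selected affects how many of them it holds. The labels give total RNA as the molecule, and the selection step is not stated in any of them.

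A search of the GENCODE M21 transcripts for a stem of 6 paired bases with a loop of 4 (letters GGNNNTTNTNANNNCC) found it in 46 of 67 members (68.7%), against 107 of 141767 transcripts of any kind (0.0755%). Of the H4 genes 12 of 13 held it, of the H3 genes 9 of 12, of H2A 11 of 18, of H2B 10 of 18 and of H1 4 of 6. No match says only that these letters are not in the annotated model. The examples below, chosen because the results turn on these genes, show the stem-loop in capitals with 5 bases on each side in lower case, 5′ to 3′ on the strand of the gene, from the M21 transcripts. No H4 gene had the same stem-loop letters as a gene of another class.
Hist4h4 (chr6:136803993-136804018, minus strand): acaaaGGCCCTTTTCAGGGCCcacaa
Hist2h4 (chr3:96262934-96262959, minus strand): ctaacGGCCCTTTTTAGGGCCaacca
Hist3h2ba (chr11:58949344-58949369, plus strand): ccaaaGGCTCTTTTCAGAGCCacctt
Hist2h3c2 (chr3:96238480-96238505, minus strand): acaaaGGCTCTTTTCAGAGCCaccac
Hist1h2bj (chr13:22043633-22043658, plus strand): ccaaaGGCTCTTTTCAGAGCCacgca
Hist1h1c (chr13:23739507-23739532, plus strand): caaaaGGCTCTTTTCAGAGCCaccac

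The form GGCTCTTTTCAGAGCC was the commonest, in 10 H2A, 8 H2B, 5 H3 and 3 H1 genes, and no H4 gene had it. The form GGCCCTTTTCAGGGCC was found in 7 genes, all of class H4. The annotated model ran on for more than 200 bases past the stem-loop in 18 members, by 2445 bases in Hist4h4 and by 4884 bases in Hist1h1d.

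The copies are alike enough that reads can be shared between them. Of all stretches of 31 bases in a member's transcript, the median share found in no other gene was 41.5%, and 39 of 67 members were under 50%. The median was 96.3% in H1 and 25.1% in H2A. Reads of genes with a low share, such as Hist2h2aa2 and Hist2h3c1 with 0% each, are divided among copies by the quantification, so their single values are uncertain. Hist1h2bq and Hist1h2br are such a pair: summed as 1 feature they had 496 and 497 CPM in Jmjd3 KO and 483 and 507 CPM in Utx KO, against 578 and 559.8 CPM in Tdt Control. CPM are counts of a gene relative to the TMM-scaled size of its library.

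The histone genes took 1.73% and 1.78% of all estimated reads in Jmjd3 KO and 1.64% and 1.72% in Utx KO, against 1.94% and 1.90% in Tdt Control. Library totals ran from 53750675 to 77675388 estimated reads. Of the 67 members, 62 had at least 1 CPM in each library and 48 averaged at least 100 CPM. The low-count filter kept 64 for testing among 17084 genes. Those left out were Hist1h2aa and Hist1h2ba, which encode testis histones, and Hist2h3c1, which was listed at 0 in all 6 libraries.

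Levels between genes are compared here in TPM, which corrects for the length of the annotated transcript. In class H4, Hist1h4h led with a mean of 1422 TPM over the 6 libraries, followed by Hist1h4f with 1160, Hist1h4a with 1113 and Hist1h4m with 1091 TPM. In class H2A, the highest were Hist1h2ap with 1343, Hist2h2aa1 with 1060, Hist2h2aa2 with 909.9 and Hist1h2ab with 716 TPM. These 4 genes held 61.2% of the H2A total. Hist1h2ap has 6.64% of its 31-base stretches to itself, so its value may hold reads of other copies. Hist1h2ao, with 6.22%, was assigned 30.5 to 89.5 reads in a library.

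The highest gene of H2B, of H3 and of H1 was lower in TPM than the highest of H4 and of H2A. Hist1h2bq had 848 TPM, Hist2h2bb 828, Hist1h2bb 827 and Hist1h2bn 731 TPM, together 50.1% of H2B. The 381-base transcript of Hist1h2bq, which holds most of its reads, has 0% of its 31-base stretches to itself. A transcript of Hist1h2br was missing from the files, so the rank of Hist1h2bq may rest on reads of both genes. Hist1h3c had 678, Hist1h3b 588, Hist1h3i 525 and Hist2h3b 519.9 TPM, together 51.8% of H3. In H1, Hist1h1a had 520.1, Hist1h1b 508, Hist1h1c 484 and Hist1h1e 280.1 TPM, and these 4 held 95.8% of the class. This share depends on the annotated lengths. Hist1h1d, outside the 4, has a 7425-base model and held 24442 to 33419.5 reads in a library. Hist1h1b, with 743 bases, held 24696 to 41554.9. Over all classes 50 members averaged at least 100 TPM and 7 were under 3 TPM.

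**Figure D1:**
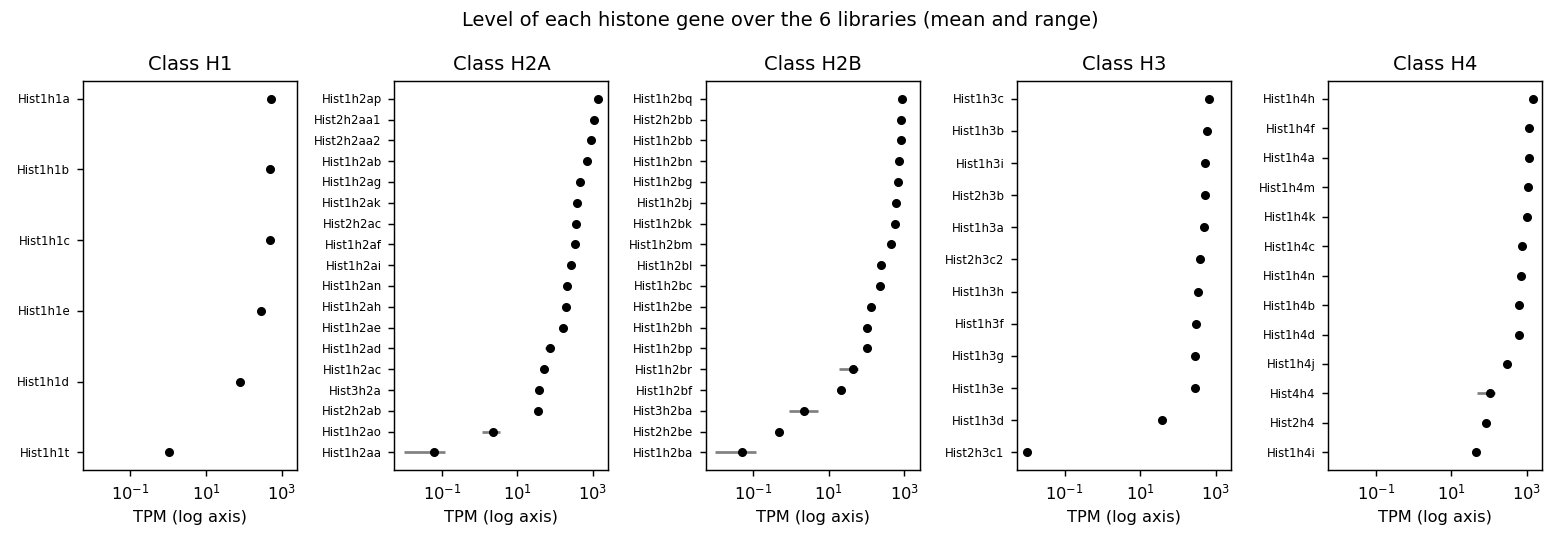
Mean TPM of each of the 67 histone genes over the 6 libraries (points) with the range over libraries (lines), on a log axis, by class; values under 0.01 TPM are drawn at 0.01. The 50 genes at 100 TPM or more sit at the top of the panels, and Hist2h3c1, listed at 0, is at the bottom of the H3 panel.

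The shares of H2A, H2B, H3 and H4 in the core histone total differed little in size between the genotypes, but some groups did not overlap. H2A took 24.8% and 24.9% of the summed core histone TPM in Jmjd3 KO and 24.9% and 24.96% in Utx KO, against 24.7% and 25.1% in Tdt Control. H4 took 34.0% and 33.7% in Jmjd3 KO and 34.5% and 34.5% in Utx KO, against 33.5% and 33.1% in Tdt Control. H2B took 24.4% and 24.1% in Jmjd3 KO and 24.4% and 23.9% in Utx KO, against 24.7% and 24.8% in Tdt Control. In each knockout the H4 share of TPM lay above, and the H2B share below, both Tdt Control libraries, while the H2A shares overlapped. For H4 in Jmjd3 KO this depended on the measure. Its log2 ratio to Tdt Control was -0.035 in TPM, against -0.064 for all classes. In CPM it was -0.185, against -0.166 for all classes. H3 took 16.7% and 17.3% in Jmjd3 KO and 16.2% and 16.6% in Utx KO, against 17.2% and 17.0% in Tdt Control, so its share lay below Tdt Control in Utx KO and overlapped with it in Jmjd3 KO.

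The targeted genes were checked first. Kdm6a had 7.68 and 7.38 CPM in Utx KO, against 32.8 and 34.0 CPM in Tdt Control. Kdm6b had 15.9 and 16.5 CPM in Jmjd3 KO, against 29.9 and 22.7 CPM in Tdt Control (log2 fold change -0.70 ± 0.12 SE, adjusted p = 0.0243, edgeR's quasi-likelihood test with Benjamini-Hochberg adjustment over all genes tested). Without Jmjd3 KO replicate 1 or 2 the adjusted p of Kdm6b was 0.167 or 0.123. For the labelled cell type, all 8 satellite cell markers were detected and summed to 4028 and 4106 CPM in Jmjd3 KO and 3828 and 3896 CPM in Utx KO, against 3813 and 3841 CPM in Tdt Control. All 6 neutrophil markers were detected and summed to 181 and 136 CPM in Jmjd3 KO and 121 and 147 CPM in Utx KO, against 89.3 and 101 CPM in Tdt Control. All 8 macrophage and monocyte markers were detected and summed to 280.3 and 243 CPM in Jmjd3 KO and 162 and 194 CPM in Utx KO, against 178 and 208 CPM in Tdt Control. All 5 fibro-adipogenic markers were detected and summed to 102 and 97.2 CPM in Jmjd3 KO and 63.2 and 74.2 CPM in Utx KO, against 78.9 and 93.6 CPM in Tdt Control. The sums of the satellite, neutrophil, macrophage and fibro-adipogenic markers were thus higher in both Jmjd3 KO libraries than in both Tdt Control libraries. All 6 endothelial markers were detected and summed to 46.3 and 59.6 CPM in Jmjd3 KO and 47.0 and 40.6 CPM in Utx KO, against 53.7 and 59.3 CPM in Tdt Control. The 6 erythroid markers, 2 of them under 1 CPM in all libraries, summed to 28.1 and 37.5 CPM in Jmjd3 KO and 43.2 and 41.5 CPM in Utx KO, against 31.6 and 38.1 CPM in Tdt Control. In Utx KO the neutrophil and erythroid sums lay above Tdt Control and the fibro-adipogenic and endothelial sums below it, without overlap. The 5 lymphoid markers were each under 1 CPM in all libraries. The part of these other cells in the histone values below was not tested. In bulk samples, fewer cells of a type or a cycle phase and less RNA per cell cannot be told apart.

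The summed level of the histone genes was lower in both knockouts than in Tdt Control. All classes together gave 17077 and 17525 CPM in Jmjd3 KO and 16403 and 17475 CPM in Utx KO, against 19786 and 19041 CPM in Tdt Control. The means ± SD were 17301 ± 316 CPM in Jmjd3 KO and 16939 ± 758 CPM in Utx KO, against 19413 ± 527 CPM in Tdt Control (n = 2 each). The log2 ratio to Tdt Control was -0.17 in Jmjd3 KO and -0.20 in Utx KO, that is 10.9% and 12.7% lower. No p-value is given for a sum over chosen genes.

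In CPM each of the 5 classes was lower in both knockouts, with no overlap between either knockout and Tdt Control. H1, the linker histones, summed to 3017 and 3077 CPM in Jmjd3 KO and 3032 and 3122 CPM in Utx KO, against 3487 and 3292 CPM in Tdt Control. H2A summed to 2980.3 and 3102 CPM in Jmjd3 KO and 2789 and 3010.3 CPM in Utx KO, against 3395 and 3294 CPM in Tdt Control. H2B summed to 3922 and 3989 CPM in Jmjd3 KO and 3755 and 3960.3 CPM in Utx KO, against 4591 and 4462 CPM in Tdt Control. The H2B sum was the furthest below Tdt Control in Jmjd3 KO, by 12.6%.

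The H3 and H4 sums behaved alike in direction. H3 summed to 2458 and 2631 CPM in Jmjd3 KO and 2244 and 2442 CPM in Utx KO, against 2850.3 and 2741 CPM in Tdt Control. H4 summed to 4700.1 and 4726 CPM in Jmjd3 KO and 4584 and 4941 CPM in Utx KO, against 5463 and 5251 CPM in Tdt Control. In Utx KO the H3 sum was the furthest below Tdt Control, by 16.2%, and the H1 sum the least, by 9.23%.

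The size of the Jmjd3 KO difference depended on the scale. In TPM, the log2 ratio of all classes to Tdt Control was -0.06 in Jmjd3 KO and -0.17 in Utx KO. On that scale H2A, H3 and H4 of Jmjd3 KO overlapped with Tdt Control, while H1 and H2B stayed below it, and every class of Utx KO stayed below it. The median gene tested was itself 0.09 higher (log2) in Jmjd3 KO than in Tdt Control in TPM, and differed by -0.0046 in CPM.

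**Figure D2:**
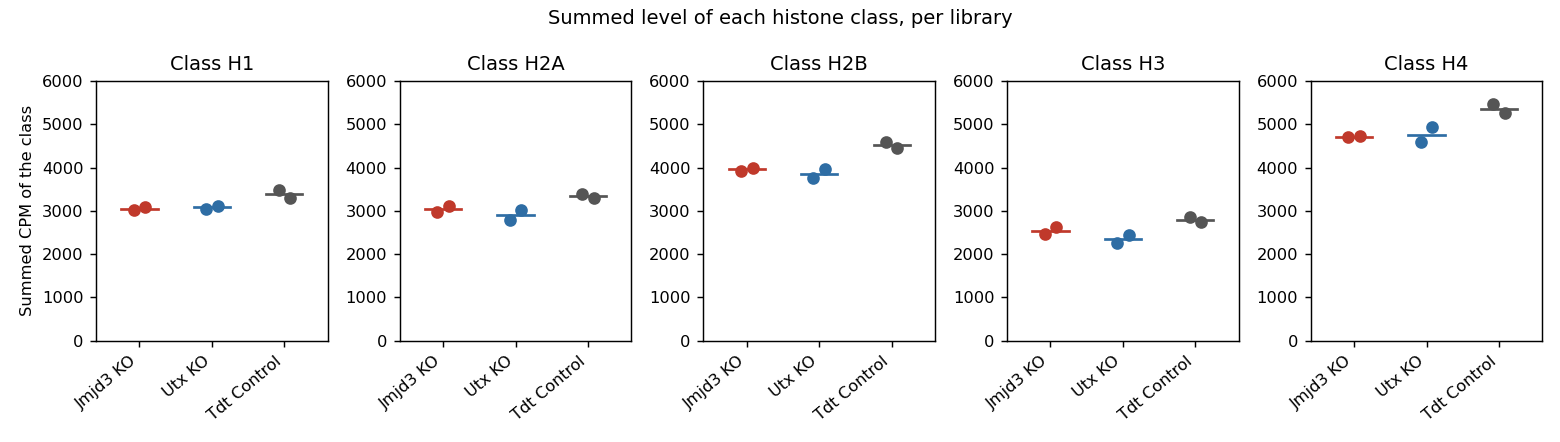
Summed CPM of each histone class in each library (points) with the mean of the 2 libraries (lines), for Jmjd3 KO, Utx KO and Tdt Control. In every class both libraries of each knockout lie below both Tdt Control libraries, for example 3922 and 3989 CPM in Jmjd3 KO against 4591 and 4462 CPM in Tdt Control for H2B.

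Gene by gene, most members were lower in Jmjd3 KO. Of the 64 tested, 50 had a fold change below 0 (all genes tested, 50.9%), and 44 had both Jmjd3 KO libraries below both Tdt Control libraries (all genes tested, 25.5%), while 7 had both above (all genes tested, 26.2%). The median log2 fold change of the members was -0.17, against -0.0047 over all genes. At an adjusted p under 0.05, 11 members fell and 2 rose, where 1.03% of all genes tested fell, 1.97% rose and 3.0% were called in all. At an unadjusted p under 0.05, 34 members were lower, where 8.93% of all genes were, and 6 were higher, where 11.0% of all genes were.

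By class, the calls in Jmjd3 KO were uneven. In H2B 6 of 17 tested members fell and 1 rose, in H2A 1 of 17 fell and 1 rose, in H1 2 of 6 fell, in H4 2 of 13 fell, and in H3 0 of 11 were called by edgeR's test. The 11 H3 members had 5 at an unadjusted p under 0.05 below Tdt Control and 1 above it, DESeq2 called 3 lower and 1 higher, and their median log2 fold change was -0.14. The medians of H1, H2A, H2B and H4 were -0.19, -0.19, -0.19 and -0.16.

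Hist4h4, an H4 gene that stands alone on chromosome 6 (136801553 to 136804415, minus strand), was the furthest below Tdt Control of the members. It had 147 and 109 CPM in Jmjd3 KO and 277 and 289 CPM in Utx KO, against 347 and 329 CPM in Tdt Control. Both Jmjd3 KO libraries lay below the other 4. The fall in Jmjd3 KO was 2.64-fold (log2 fold change -1.40 ± 0.12 SE, adjusted p = 0.00235). The Utx KO difference was -0.26 ± 0.12 (adjusted p = 0.350). Leaving out each library in turn gave log2 fold changes between -1.63 and -1.20 in Jmjd3 KO, and the call held each time.

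The neighbour of Hist4h4, H2afj, which encodes an H2A variant made outside S phase, lies 3828 bases away. It had 28.8 and 27.3 CPM in Jmjd3 KO and 33.9 and 40.4 CPM in Utx KO, against 34.8 and 37.3 CPM in Tdt Control. Its log2 fold change in Jmjd3 KO was -0.36 ± 0.08 (adjusted p = 0.0665), which does not pass, and against Utx KO it was -0.41 ± 0.09 (adjusted p = 0.0299). The call against Utx KO was lost without Jmjd3 KO replicate 1 (adjusted p = 0.113), Jmjd3 KO replicate 2 (0.198) or Utx KO replicate 2 (0.0890).

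Hist3h2ba, an H2B gene on chromosome 11 (58948920 to 58949533, plus strand), moved the other way. It had 209 and 233 reads in Jmjd3 KO and 36.0 and 54.4 reads in Utx KO, against 61.3 and 42.5 reads in Tdt Control. In CPM that was 3.18 and 3.61 in Jmjd3 KO and 0.670 and 0.918 in Utx KO, against 0.803 and 0.653 in Tdt Control. The rise in Jmjd3 KO was 4.64-fold (log2 fold change 2.21 ± 0.22, adjusted p = 0.00350), from a low level among the H2B genes. Leaving out each library in turn gave log2 fold changes between 2.09 and 2.37, all called.

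Hist3h2a, an H2A gene 5151 bases from Hist3h2ba, had 83.4 and 87.1 CPM in Jmjd3 KO and 65.6 and 70.8 CPM in Utx KO, against 84.0 and 78.5 CPM in Tdt Control. Its log2 fold change in Jmjd3 KO was 0.07 ± 0.07 (adjusted p = 0.612). A model of the gene Trim17 overlaps Hist3h2a on the same strand, and it was assigned at most 4.64 reads in a library. Hist3h2ba and Hist3h2a lie 10.4 Mb from Kdm6b on the same chromosome.

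**Figure D3:**
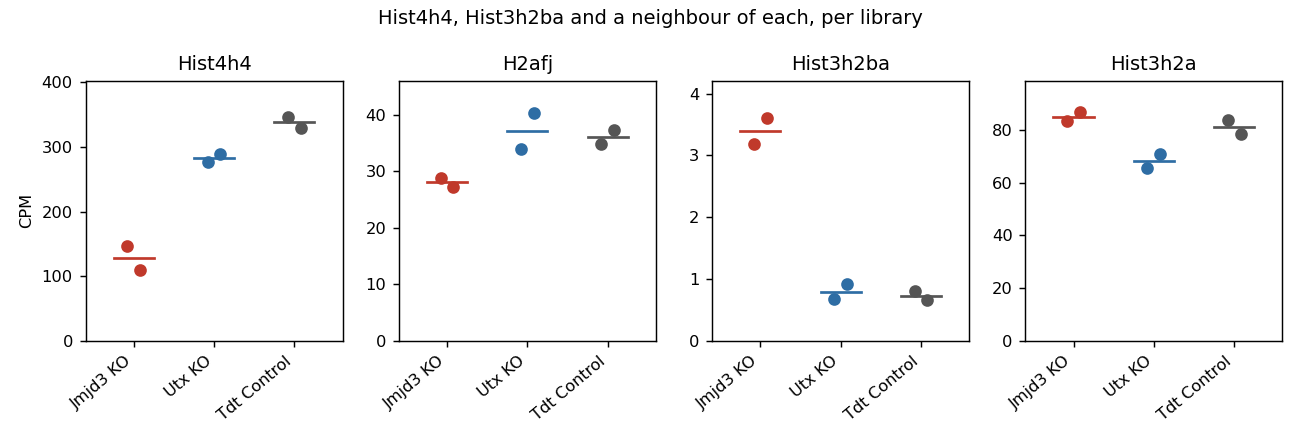
CPM of Hist4h4, H2afj, Hist3h2ba and Hist3h2a in each library (points) with the mean of 2 libraries (lines), each panel from 0. Hist4h4 is at 147 and 109 CPM and Hist3h2ba at 3.18 and 3.61 CPM in Jmjd3 KO, apart from the other 4 libraries in each panel.

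The other members called in Jmjd3 KO moved by far less. Among H1 genes, Hist1h1a had 483 and 499 CPM in Jmjd3 KO, against 620.0 and 599 CPM in Tdt Control (-0.31 ± 0.04, adjusted p = 0.0110). Hist1h1c had 867 and 863 CPM in Jmjd3 KO, against 1017 and 980.0 CPM in Tdt Control (-0.21 ± 0.04, adjusted p = 0.0346). The groups did not overlap for either gene.

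Among H2B genes, Hist1h2bc had 240.4 and 247 CPM in Jmjd3 KO and 236 and 242 CPM in Utx KO, against 304 and 312 CPM in Tdt Control. Hist1h2bj had 317 and 327 CPM in Jmjd3 KO and 281 and 293 CPM in Utx KO, against 396 and 389 CPM in Tdt Control. Hist1h2bm had 269 and 269.9 CPM in Jmjd3 KO and 279 and 289.8 CPM in Utx KO, against 339.7 and 339 CPM in Tdt Control. In these 3 genes every knockout library lay below both Tdt Control libraries. Their log2 fold changes in Jmjd3 KO were -0.34, -0.29 and -0.33 in the order named (adjusted p = 0.0122, 0.0213 and 0.0110).

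Hist2h2bb, an H2B gene on chromosome 3, had 329 and 349.5 CPM in Jmjd3 KO and 313 and 335 CPM in Utx KO, against 428 and 404 CPM in Tdt Control. Hist2h4, an H4 gene on the same chromosome, had 176 and 186 CPM in Jmjd3 KO and 176 and 175 CPM in Utx KO, against 219.9 and 215 CPM in Tdt Control. Their log2 fold changes in Jmjd3 KO were -0.29 and -0.26 (adjusted p = 0.0380 and 0.0374). Hist1h2be, Hist1h2bp and Hist1h2ac also fell, with log2 fold changes of -0.27, -0.29 and -0.30 (adjusted p = 0.0210, 0.0269 and 0.0454). Some of these genes overlap others. All 381 bases of Hist2h2bb lie in the span of Gm42743 on the same strand, which was assigned 3465 to 6384 reads in a library. They also lie in that of Gm20628 on the opposite strand, with 2106 to 4901 reads. The span of Hist1h2be overlaps that of Hist1h1e on the same strand by 496 bases.

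Hist1h2ae, an H2A gene, rose in Jmjd3 KO, with 104 and 101 CPM in Jmjd3 KO and 96.6 and 98.3 CPM in Utx KO, against 86.0 and 82.3 CPM in Tdt Control (0.28 ± 0.06, adjusted p = 0.0403). The number of members called in Jmjd3 KO was 2 without either Jmjd3 KO library, 3 without Tdt Control replicate 1, 5 without Tdt Control replicate 2, and 11 and 12 without Utx KO replicates 1 and 2. Hist4h4 and Hist3h2ba were called each time, and Hist1h2ae, Hist1h2ac, Hist1h2bp and Hist2h4 in none of these fits. The authors' deposited table had 28 members lower and 6 higher in Jmjd3 KO at an adjusted p under 0.05, where 6.1% of its genes were called.

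**Figure D4:**
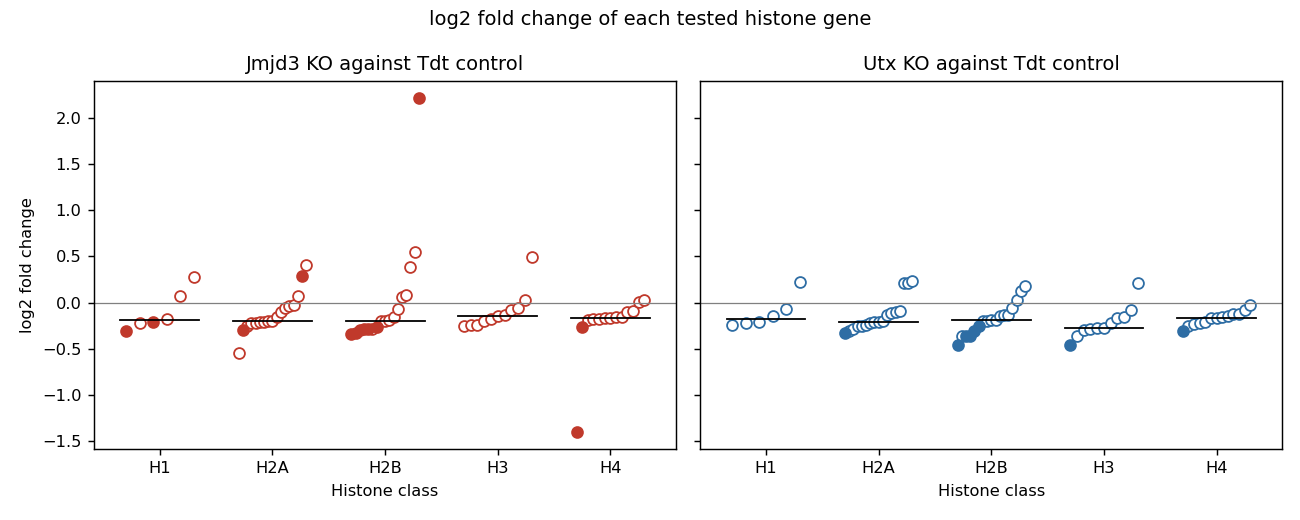
log2 fold change of each tested histone gene by class, in Jmjd3 KO and in Utx KO against Tdt Control; filled points have an adjusted p under 0.05 and black lines are class medians. All class medians lie below 0, and Hist3h2ba at 2.21 and Hist4h4 at -1.40 stand apart in the Jmjd3 KO panel.

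Members were also mostly lower in Utx KO. Of the 64 tested, 56 had a fold change below 0 (all genes tested, 50.6%), and 48 had both Utx KO libraries below both Tdt Control libraries (all genes tested, 23.3%), while 2 had both above (all genes tested, 22.3%). The median log2 fold change of the members was -0.20, against -0.0022 over all genes. At an adjusted p under 0.05, 8 members fell and 0 rose, where 0.925% of all genes tested fell, 0.79% rose and 1.72% were called in all. At an unadjusted p under 0.05, 42 members were lower, where 8.54% of all genes were, and 2 were higher, where 7.66% of all genes were. DESeq2 called 28 lower and 1 higher, among 658 genes called in all. Utx KO and Jmjd3 KO were set against the same 2 Tdt Control libraries, so the 2 comparisons are not independent.

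By class, 5 of 17 tested H2B members fell in Utx KO, and in each of H2A, H3 and H4 1 member fell. In H1 edgeR's test called 0 of 6, with 4 lower and 1 higher at an unadjusted p under 0.05 and 3 lower by DESeq2. The median log2 fold changes were -0.18 in H1, -0.20 in H2A, -0.19 in H2B, -0.27 in H3 and -0.17 in H4. All 13 H4 members had a fold change below 0.

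Hist1h2bj was the H2B gene furthest below Tdt Control, with a log2 fold change of -0.45 ± 0.05 (adjusted p = 0.00941). Hist1h2bc and Hist2h2bb had log2 fold changes of -0.36 ± 0.05 (adjusted p = 0.0179) and -0.36 ± 0.06 (adjusted p = 0.0288). Hist1h2bm had a log2 fold change of -0.25 ± 0.04 (adjusted p = 0.0370) and Hist2h4 one of -0.31 ± 0.05 (adjusted p = 0.0309). Hist1h2bh, another H2B gene, had 144 and 153 CPM in Utx KO, against 187 and 178 CPM in Tdt Control (-0.30 ± 0.05, adjusted p = 0.0445).

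Hist2h3c2, an H3 gene on chromosome 3, had 379 and 421 CPM in Jmjd3 KO and 309 and 336 CPM in Utx KO, against 451 and 433 CPM in Tdt Control. In Utx KO the log2 fold change was -0.46 ± 0.07 (adjusted p = 0.0249), the lowest of the 64 in that comparison. Hist2h3c1, the copy listed at 0, shares all of its 31-base stretches with other genes, so the value of Hist2h3c2 may hold reads of both. Hist2h2ac, an H2A gene on chromosome 3, had 155 and 164 CPM in Utx KO, against 202 and 199.7 CPM in Tdt Control (-0.33 ± 0.05, adjusted p = 0.0309).

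The number of members called in Utx KO was 3 without either Jmjd3 KO library, 0 without Tdt Control replicate 1, 2 without Tdt Control replicate 2, 0 without the first Utx KO library and 2 without the second. The members' median log2 fold change over these fits lay between -0.24 and -0.14. The authors' deposited table had 26 members lower and 1 higher in Utx KO at an adjusted p under 0.05, where 4.21% of its genes were called.

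The upstream sequence of 3 H2B genes that fell in each knockout comparison is printed here, the 120 bases before the start site from RefSeq on GRCm38.p6, 5′ to 3′ on the gene's strand. Capitals mark CCAAT and the octamer ATTTGCAT, an element known from H2B promoters, on either strand.
Hist1h2bj (chr13:22043078-22043197, plus strand): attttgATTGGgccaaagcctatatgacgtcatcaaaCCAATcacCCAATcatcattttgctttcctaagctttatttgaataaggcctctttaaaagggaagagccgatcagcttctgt
Hist1h2bm (chr13:21721924-21722043, plus strand): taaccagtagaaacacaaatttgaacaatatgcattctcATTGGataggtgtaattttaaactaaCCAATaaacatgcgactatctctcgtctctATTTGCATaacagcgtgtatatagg
Hist2h2bb (chr3:96269580-96269699, plus strand): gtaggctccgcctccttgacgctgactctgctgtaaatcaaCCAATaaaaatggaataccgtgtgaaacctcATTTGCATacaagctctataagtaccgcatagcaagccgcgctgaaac

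RefSeq promoters, from 250 bases before to 50 after a start site, were found for 62 of 67 members. CCAAT on either strand was in all 6 H1, 18 H2A, 16 H2B and 10 H3 promoters and in 3 of 12 H4 promoters (25%), against 37.4% of all 32851 promoters. The octamer ATTTGCAT on either strand was in 7 of 18 H2A promoters (38.9%) and 7 of 16 H2B promoters (43.8%), against 1.74% of all promoters, and in 0 of the H1, H3 and H4 promoters. The letters TATAAA on either strand were in 40% to 66.7% of the promoters of a class, against 13.6% of all. The motifs were searched separately, so matches of different motifs can share bases. A match is a description of the sequence.

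Members were also split by their sequence, level and chromosome. Of the 45 tested members with a stem-loop in the model, the median log2 fold change was -0.18 in Jmjd3 KO and -0.19 in Utx KO. Of the 19 without one, it was -0.16 in Jmjd3 KO and -0.20 in Utx KO. The 26 members with at least 50% of their 31-base stretches to themselves had medians of -0.18 in Jmjd3 KO and -0.17 in Utx KO, and the other 38 had -0.16 in Jmjd3 KO and -0.20 in Utx KO. In the split by level, the median of the 48 members averaging at least 100 CPM was -0.18 in Jmjd3 KO and -0.21 in Utx KO, and that of the other 16 was 0.06 in Jmjd3 KO and -0.07 in Utx KO, so its sign in Jmjd3 KO turned. Of the 48, 43 were lower in Jmjd3 KO and 47 in Utx KO, and of the other 16, 7 were lower in Jmjd3 KO and 9 in Utx KO. The 9 tested members on chromosome 3 had medians of -0.21 in Jmjd3 KO and -0.31 in Utx KO, and the 52 on chromosome 13 had -0.17 in Jmjd3 KO and -0.18 in Utx KO.

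Along chromosome 13, 7 neighbouring genes ran against the rest of the cluster. They span 23.75 kb (23553262 to 23577011) and are Hist1h1d, Hist1h3e, Hist1h2ae, Hist1h2bg, Hist1h2bf, Hist1h2ad and Hist1h3d, of 4 classes. They were singled out after their values were seen, so no test is given. In Jmjd3 KO all 7 had a log2 fold change above 0, between 0.03 and 0.55, where 4 of the other 45 tested genes of the chromosome did. In Utx KO 5 of the 7 were above 0, up to 0.22, where 1 of the other 45 was.

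Hist1h3d, an H3 gene of this stretch, had 55.2 and 53.7 CPM in Jmjd3 KO and 39.99 and 49.2 CPM in Utx KO, against 41.6 and 35.5 CPM in Tdt Control (0.50 ± 0.11 in Jmjd3 KO, adjusted p = 0.0537). Hist1h2bf had 14.4 and 13.1 CPM in Jmjd3 KO and 9.15 and 12.2 CPM in Utx KO, against 10.1 and 8.82 CPM in Tdt Control (0.55 ± 0.14 in Jmjd3 KO, adjusted p = 0.0801). Hist1h1d, the linker histone gene with the 7425-base model, had 485 and 496 CPM in Jmjd3 KO and 469.6 and 475 CPM in Utx KO, against 439.8 and 371 CPM in Tdt Control. Of the 7, only Hist1h2ae passed edgeR's test in Jmjd3 KO and 0 passed in Utx KO. In the authors' deposited table, Hist1h1d, Hist1h2ae, Hist1h2ad, Hist1h2bf and Hist1h3d were higher in Jmjd3 KO at an adjusted p under 0.05. Hist1h3e and Hist1h2bg were not, and in Utx KO only Hist1h2ae was. The Hist1h2ae call in Jmjd3 KO held in 8 of 12 other settings that left out no replicate. With each library left out in turn, its log2 fold change lay between 0.26 and 0.31. The 2 Tdt Control libraries differ in this stretch, replicate 1 being above replicate 2 in each of these 3 genes.

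**Figure D5:**
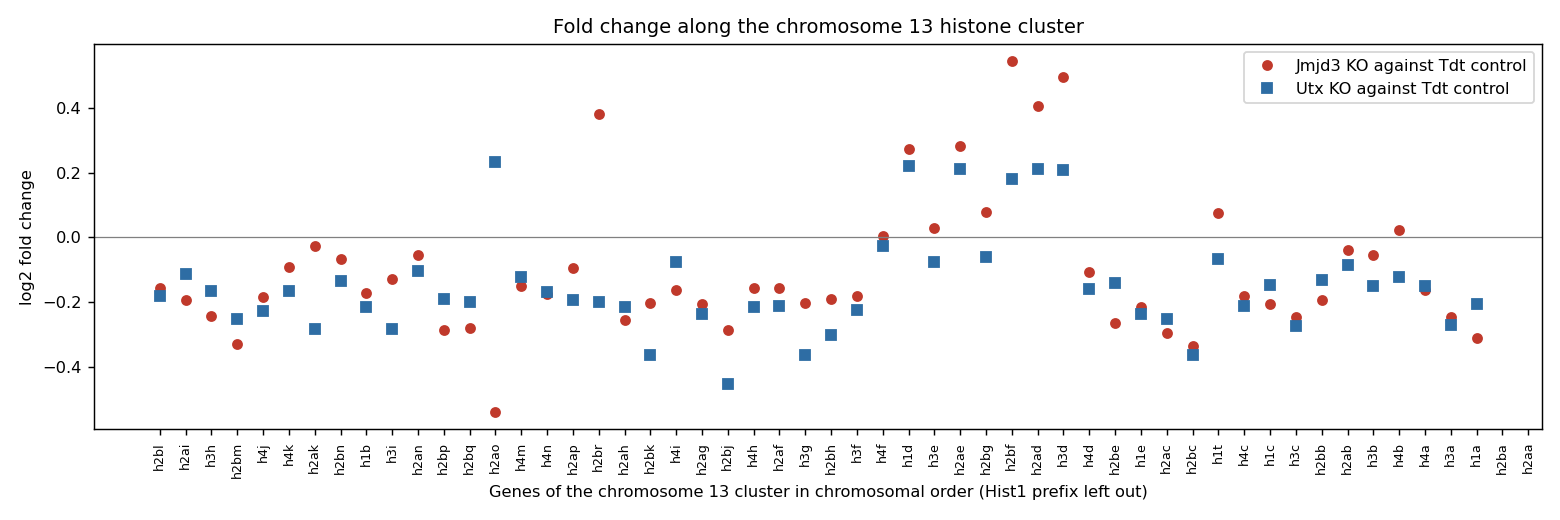
log2 fold change against Tdt Control of the histone genes of chromosome 13 in chromosomal order, for Jmjd3 KO (circles) and Utx KO (squares); the gene axis is by rank and not to scale. The run from h1d to h3d lies above 0 in Jmjd3 KO, up to 0.55, and most others lie below it.

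Set against each other, the knockouts differed in few members. Of the 64 tested, 4 were higher and 1 lower in Jmjd3 KO than in Utx KO at an adjusted p under 0.05, where 5.13% of all genes tested were higher, 2.89% lower and 8.02% called in all. The members' share of 7.81% is near that background. The median log2 fold change was 0.05, against 0.0014 over all genes, and 19 members were below 0 (all genes tested, 49.7%).

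The 2 largest differences were those of Hist3h2ba (2.09 ± 0.22, adjusted p = 0.00300) and Hist4h4 (-1.14 ± 0.12, adjusted p = 0.00308). Hist3h2a was higher in Jmjd3 KO than in Utx KO by 0.32 ± 0.07 (adjusted p = 0.0285) and Hist2h3c2 by 0.31 ± 0.07 (adjusted p = 0.0304). Hist1h2ak, an H2A gene, had 133 and 142 CPM in Jmjd3 KO, against 112 and 118 CPM in Utx KO (0.25 ± 0.06, adjusted p = 0.0412). The Hist4h4 and Hist3h2ba calls held without any 1 library, and the count of members called was 2 without either Jmjd3 KO library, 2 without the first Utx KO library and 3 without the second. Among class sums, only that of H3 did not overlap between the knockouts in CPM, at a log2 ratio of 0.12. In TPM none of the 5 overlapped, with Jmjd3 KO higher. The median gene tested was itself 0.095 higher (log2) in Jmjd3 KO than in Utx KO in TPM, and differed by 0.00082 in CPM. Without the most abundant H3 gene the H3 sums overlapped in CPM.

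Genes of the same pathway were read from the same fit, in 5 lists. Over all genes, DESeq2 called 1042 in Jmjd3 KO and 658 in Utx KO. Histones made outside S phase, such as H2afz, H3f3a and H3f3b, replace the replication-dependent ones in chromatin. The list of replication-independent histones holds 11 tested variant genes, and when in the cell cycle each is made was not tested. By edgeR's test 0 were called in Jmjd3 KO or in Utx KO, and DESeq2 called 1 and 2. At an unadjusted p under 0.05, 1 was lower and 1 higher in Jmjd3 KO, where 8.93% and 11.0% of all genes tested were. In Utx KO 2 were lower and 1 higher, where 8.54% and 7.66% of all genes tested were. Their median log2 fold changes were -0.02 in Jmjd3 KO and 0.04 in Utx KO. In 4 of the 11 both Jmjd3 KO libraries lay below both Tdt Control libraries (all genes tested, 25.5%), and in 2 above (26.2%). For Utx KO this was 4 below (23.3%) and 2 above (22.3%). H1f0, a linker histone of resting cells, had -0.29 ± 0.06 in Utx KO (adjusted p = 0.0536). H2afx had -0.29 in Utx KO (adjusted p = 0.0935), H2afv 0.25 in Jmjd3 KO (adjusted p = 0.231) and H3f3a 0.12 in Utx KO (adjusted p = 0.414).

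Among 30 tested genes of histone mRNA processing and decay, 1 rose in Jmjd3 KO and 0 were called in Utx KO by edgeR's test, and DESeq2 called 3 and 0. At an unadjusted p under 0.05, 7 were lower and 1 higher in Jmjd3 KO, where 8.93% and 11.0% of all genes were, and 2 were lower in Utx KO, where 8.54% of all genes were. Both Jmjd3 KO libraries lay below both Tdt Control libraries in 14 of the 30 (all genes tested, 25.5%). They lay above in 5 (all genes tested, 26.2%). Both Utx KO libraries lay below in 9 (all genes tested, 23.3%) and above in 6 (all genes tested, 22.3%). The median log2 fold changes were -0.08 in Jmjd3 KO and 0.0021 in Utx KO. Upf1, a helicase that acts in the decay of histone mRNA, had 106 and 115 CPM in Jmjd3 KO and 71.5 and 74.0 CPM in Utx KO, against 75.8 and 62.7 CPM in Tdt Control. Both Jmjd3 KO libraries lay above the other 4, and the log2 fold change was 0.67 ± 0.09 (adjusted p = 0.0140). Without Jmjd3 KO replicate 1 or 2 the adjusted p was 0.0592 or 0.0729. Slbp, the stem-loop binding protein, had 71.3 and 68.8 CPM in Jmjd3 KO and 84.8 and 78.8 CPM in Utx KO, against 77.5 and 80.2 CPM in Tdt Control (-0.17 ± 0.06 in Jmjd3 KO, adjusted p = 0.179). Against Utx KO, Upf1 was higher in Jmjd3 KO (0.60 ± 0.09, adjusted p = 0.0114) and Ncbp2, a subunit of the cap-binding complex, lower (-0.32 ± 0.06, adjusted p = 0.0177). Without any 1 of the 4 knockout libraries these adjusted p lay between 0.0459 and 0.0844 for Upf1 and between 0.0602 and 0.127 for Ncbp2. Cdk2, the kinase that acts with cyclin E at the start of S phase, had -0.24 in Jmjd3 KO (adjusted p = 0.0612).

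Histone chaperones carry newly made histones to chromatin. Of 28 tested, 0 were called in either knockout by edgeR's test, and at an unadjusted p under 0.05, 11 were lower in Jmjd3 KO (all genes tested, 8.93%) and 1 in Utx KO (all genes tested, 8.54%). DESeq2 called 2 in Jmjd3 KO and 0 in Utx KO. Their median log2 fold changes were -0.10 in Jmjd3 KO and -0.03 in Utx KO. In 17 of the 28 both Jmjd3 KO libraries lay below both Tdt Control libraries (all genes tested, 25.5%), and in 2 above (26.2%). For Utx KO this was 8 below (23.3%) and 2 above (22.3%). Rbbp4, a subunit of the CAF-1 chaperone, had -0.20 ± 0.04 in Jmjd3 KO (adjusted p = 0.0594), and Supt16, a subunit of the FACT complex, -0.17 (adjusted p = 0.0623).

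Of 46 genes of S phase and DNA replication, 0 were called in either knockout by edgeR's test, and at an unadjusted p under 0.05, 20 were lower in Jmjd3 KO (all genes tested, 8.93%) and 2 in Utx KO (all genes tested, 8.54%). DESeq2 called 5 in Jmjd3 KO and 2 in Utx KO. Their median log2 fold changes were -0.12 in Jmjd3 KO and -0.03 in Utx KO, and 44 of 46 were below 0 in Jmjd3 KO (all genes tested, 50.9%) and 31 of 46 in Utx KO (all genes tested, 50.6%). Beside them, the histone members had medians of -0.17 in Jmjd3 KO and -0.20 in Utx KO. In 37 of the 46 S phase genes both Jmjd3 KO libraries lay below both Tdt Control libraries (all genes tested, 25.5%), and in 1 above (26.2%). For Utx KO this was 11 below (23.3%) and 6 above (22.3%). The part of S phase content in the histone values was not tested. Pole, the catalytic subunit of a replicative DNA polymerase, had -0.23 in Jmjd3 KO (adjusted p = 0.0582) and -0.25 in Utx KO (adjusted p = 0.0668). Against Utx KO, Rfc4, a subunit of the clamp loader, was lower in Jmjd3 KO (-0.31 ± 0.06, adjusted p = 0.0184), as was Uhrf1, which maintains DNA methylation at replication (-0.18 ± 0.04, adjusted p = 0.0465). Without any 1 of the 4 knockout libraries the adjusted p lay between 0.0535 and 0.142 for Rfc4, and without any 1 of the 6 between 0.0582 and 0.230 for Uhrf1.

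Of 26 genes of G2 and mitosis, 0 were called in either knockout by edgeR's test. At an unadjusted p under 0.05, there were 0 in Jmjd3 KO and 1, lower, in Utx KO. Over all genes tested, 8.93% were lower and 11.0% higher in Jmjd3 KO, and 8.54% lower and 7.66% higher in Utx KO. DESeq2 called 0 of the 26 in either. Their medians were 0.05 in Jmjd3 KO and -0.03 in Utx KO. In 2 of the 26 both Jmjd3 KO libraries lay below both Tdt Control libraries (all genes tested, 25.5%), and in 0 above (26.2%). For Utx KO this was 1 below (23.3%) and 0 above (22.3%). Mki67, a marker of cycling cells, had 0.31 ± 0.14 in Jmjd3 KO (adjusted p = 0.257), and Top2a -0.18 in Utx KO (adjusted p = 0.231).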

How the data were processed

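Tools given, per the submitters' processing notes, are Salmon 1.1.0, cutadapt 2.6 and DESeq2 1.28.1, with no roles, and the builds are mm10 and GRCm38. Per the file headers, each library's deposited quantification holds TPM and estimated counts for every transcript. Per the file headers, the authors' tables of both knockouts against the control hold the mean normalised signal of a gene, its log2 fold change and standard error, and its p-value with the adjusted one. The fold changes there look shrunken, and how is not stated.

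Here the estimated counts of a gene's transcripts were added up (GENCODE M21, GRCm38, ignoring the version where needed) and rounded. The 884 of 140748 transcripts left unmatched held 0.151% to 0.175% of a library's reads. Libraries held 53750675 to 77675388 estimated reads. The 6 libraries were fitted together in edgeR 4.0.16 under R 4.3.3, with TMM factors, the low-count filter and genotype as the term, leaving 3 residual degrees of freedom. The quasi-likelihood test was adjusted by Benjamini-Hochberg over 17084 genes, and 0.05 was the threshold. CPM use TMM-scaled library sizes, and fold changes are log2 ± SE. The fit was tested on simulated data. Whether counting used strand is not stated, so members that overlap another gene model are uncertain.

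Named genes were the members called in any comparison, the 4 members of each class with the highest mean TPM, up to 4 genes of smallest p in each list, the targeted genes, and others said to be singled out. The members and lists were chosen with earlier results of these data known. The same fit was repeated with DESeq2 1.42.0, with RLE or upper-quartile factors, with other low-count filters, with length offsets, on the 4 libraries compared, with a replicate block, on protein-coding genes alone, and without each library. Chosen after seeing the data were a crossed replicate block, Hist1h2bq and Hist1h2br merged, and library sizes without the members.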

Additional observations from a re-analysis of the deposited data

Results flagged for a closer look

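A difference between the knockouts was tested directly in 64 histone genes, and 5 passed (7.81%), near the 8.02% of all genes tested that passed in the same comparison. Hist3h2ba (log2 difference 2.09) and Hist4h4 (-1.14) differed most, and Hist3h2a (0.32), Hist2h3c2 (0.31) and Hist1h2ak (0.25) were each higher in Jmjd3 KO than in Utx KO. Hist3h2ba and Hist4h4 passed without any 1 library. For Hist3h2a the adjusted p by edgeR's test lay between 0.0284 and 0.165 over the 6 fits that leave out a library, for Hist2h3c2 between 0.0424 and 0.176, and for Hist1h2ak between 0.0488 and 0.219.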

How the results depend on the processing

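Counts of calls moved with the settings, and no called value reversed under any setting run. Numbers below are given for Jmjd3 KO, then Utx KO, each against Tdt Control, then Jmjd3 KO against Utx KO, and the cause was not tested. Members called were 32 and 29 by DESeq2 (7 between the knockouts), 36, 35 and 11 with no low-count filter, 18, 17 and 5 with protein-coding genes alone, 12, 4 and 3 with length offsets, and 13, 3 and 6 with only the 4 libraries compared. Genes called were 1042, 658 and 1784 by DESeq2 and 1872, 1399 and 2856 with no low-count filter. With protein-coding genes alone they were 630, 369 and 1551, and with length offsets 331, 131 and 793. With only the 4 libraries compared they were 481, 119 and 1494.

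Same-numbered libraries did not deviate together (correlations of deviations -0.106 for Jmjd3 KO with Tdt Control, -0.277 for Utx KO with Tdt Control and -0.196 between the knockouts). With 2 libraries a group, crossing the numbers only turns the sign of a correlation. The check therefore cannot settle whether samples are paired. With a replicate block, members called were 5, 3 and 3 and genes called 322, 133 and 948. With the numbers crossed, members called were 7, 7 and 2 and genes called 382, 242 and 1082.

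Leaving out each library in turn gave 2 to 12, 0 to 3 and 2 to 6 members, and 113 to 434, 16 to 96 and 291 to 1387 genes. Over the same fits, 0 to 1 replication-independent histones and 0 to 1 processing genes were called in Jmjd3 KO, and between the knockouts 0 to 1, 0 to 2 and, of S phase genes, 0 to 1.

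In the lists, DESeq2 called 1, 3, 2 and 5 genes in Jmjd3 KO (replication-independent histones, processing, chaperones, S phase), 2 and 2 in Utx KO (replication-independent histones, S phase), and 2, 5, 2 and 5 between the knockouts. With no low-count filter the counts were 2, 3, 3, 5 and 3 in Jmjd3 KO (the same lists, then G2 and mitosis), 3, 2 and 3 in Utx KO (replication-independent histones, S phase, mitosis), and 6, 1, 5 and 1 between the knockouts (processing, chaperones, S phase, mitosis). The other settings gave 0 to 4 in any list. These were 2 and 1 for a filter of 1 CPM in 2 libraries, 4 for protein-coding genes alone, and 1 or 0 for upper-quartile factors, length offsets, the 4 libraries compared, the replicate block and the crossed block.

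On the TPM scale the log2 ratio to Tdt Control in Jmjd3 KO was -0.062 for H2A, -0.092 for H2B, -0.035 for H4 and -0.064 for all classes, and against Utx KO it was 0.054 for H1, 0.11 for H2B, 0.0825 for H4 and 0.11 for all classes. With library totals only, H2B in Jmjd3 KO was -0.16. Between the knockouts, H1 and H4 were at -0.01 and -0.02 in CPM, so their sign turned on the TPM scale. On the TPM scale the median gene tested was itself 0.095 higher in Jmjd3 KO than in Utx KO. With 2 libraries a group, a p that misses the threshold does not show that a gene did not differ.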
